A study of Mus musculus with 24 samples.

Results

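The ERBB receptors and the ligands of the epidermal growth factor (EGF) family were examined in skin RNA-Seq counts from mouse embryos with or without the desmoglein 1 (Dsg1) gene cluster. The genes were taken by name: 3 receptors (Egfr, Erbb2 and Erbb3) and 7 ligands (Areg, Ereg, Hbegf, Tgfa, Btc, Epgn and Egf), 10 of the 54087 gene symbols in the count table. All 10 passed the filter on low counts and were among the 17094 genes tested.

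The study compared E18.5 skin (late gestation) from animals with both copies of the cluster (WT), 1 copy (HET) or none (KO). The deletion removed Dsg1a, Dsg1b and Dsg1c, was made by CRISPR/Cas9 in C57BL/6J zygotes, descends from 1 founder, and is carried by every cell of the animal, since no Cre or transgene was involved. Embryos of both sexes were used, and KO skin splits below the cornified layer. Each genotype had 8 libraries, which were summed by the number in their titles to 5 columns per genotype, called replicates 1 to 5, with 15.3 M to 33.7 M counts each (M, mega).

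Signalling through this family begins when a ligand, made as a membrane protein and released by a protease, binds a receptor and brings 2 receptors together. Egfr binds all of the ligands named here, Erbb2 has no known ligand of its own and acts as a partner, and Erbb3 binds neuregulins and has little kinase activity, so it too depends on a partner. In epidermis this signalling, much of it through RAS and ERK, drives keratinocyte proliferation and wound closure and holds back differentiation. Desmoglein 1, a cadherin of the upper epidermis, is known to bind Erbin and to dampen EGFR to ERK signalling.

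The targeted genes followed the labels. Dsg1a, Dsg1b and Dsg1c summed to 806 ± 112 CPM (counts scaled per M) in WT, to 422 ± 51.5 in HET and to 0.548 ± 0.343 in KO (SD, n = 5 each; exact permutation test on log2(CPM + 1), two-sided p = 0.00794 for KO and for HET against WT, the smallest that 252 arrangements allow). Skin markers were present in all columns: 7 basal keratinocyte genes summed to 5810 to 8040 CPM and 7 suprabasal genes to 55700 to 104000 CPM, next to 7 fibroblast genes at 14900 to 36900 CPM and 8 skeletal muscle genes at 9390 to 21400 CPM. In tissue like this, fewer cells of a type and less RNA per cell cannot be told apart. One title number went against its own label as a unit: the libraries of number 35 (WT replicate 2) held 325 CPM of 4 Y-linked genes with 0.264 CPM of Xist in one title series, and 0.155 CPM with 567 CPM of Xist in the other. The largest ratio between those libraries among the 10 genes was that of Ereg, 14.3 against 10.8 CPM. Values without this column are given below for Ereg, Epgn, Areg, Hbegf and Egf. The Y-linked genes summed to 0.243, 143, 0.316, 0.146 and 366 CPM in WT replicates 1 to 5. They summed to 341, 0.223, 0.368, 409 and 331 CPM in HET and to 0.27, 322, 317, 282 and 0.286 CPM in KO. Sex was thus not evenly spread over the genotypes.

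Of the ligands, 4 lie side by side on mouse chromosome 5. In the GENCODE vM21 annotation of GRCm38 the order is Mthfd2l, Epgn, Ereg, Areg, Btc and Parm1 with small noncoding genes between them, and Btc is read from the strand opposite to the other ligands. The other members lie on other chromosomes, Egfr and Erbb2 together on chromosome 11 and the rest each on its own. The 250 bases before the start are shown for Epgn and Areg, which had higher means in KO, and for Btc, their neighbour, which had a lower one. They were taken from RefSeq on GRCm38.p6, where 7 of the 10 members had a window (8 windows in all). Each is written in its direction of transcription, and capitals mark a match to a searched motif. The windows are chr5:91027267-91027516 on the plus strand for Epgn, chr5:91139349-91139598 on the plus strand for Areg and chr5:91402995-91403244 on the minus strand for Btc.
Epgn: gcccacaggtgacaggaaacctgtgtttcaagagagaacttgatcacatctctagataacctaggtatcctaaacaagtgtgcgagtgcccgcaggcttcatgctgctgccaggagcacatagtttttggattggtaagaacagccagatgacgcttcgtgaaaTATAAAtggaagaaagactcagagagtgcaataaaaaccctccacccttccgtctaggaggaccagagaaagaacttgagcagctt
Areg: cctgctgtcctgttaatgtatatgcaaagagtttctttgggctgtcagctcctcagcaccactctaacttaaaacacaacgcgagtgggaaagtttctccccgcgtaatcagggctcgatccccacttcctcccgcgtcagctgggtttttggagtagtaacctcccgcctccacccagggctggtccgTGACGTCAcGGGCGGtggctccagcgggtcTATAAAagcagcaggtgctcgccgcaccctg
Btc: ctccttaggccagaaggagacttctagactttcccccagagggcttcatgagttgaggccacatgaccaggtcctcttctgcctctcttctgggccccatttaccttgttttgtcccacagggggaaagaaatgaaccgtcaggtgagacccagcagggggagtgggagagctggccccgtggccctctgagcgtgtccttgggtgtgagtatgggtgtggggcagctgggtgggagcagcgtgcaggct

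The motifs were searched on both strands as fixed letters. The Areg window held a cAMP response element (TGACGTCA) from 61 to 54 bases before the start, an Sp1 box (GGGCGG) from 52 to 47 bases before it and a TATA box (TATAAA) from 31 to 26 bases before it. The Epgn window held the letters TATAAA once, from 86 to 81 bases before its start, farther from it than in Areg. The Btc window held no match. Over 32851 RefSeq windows of the same length, 1.55% held the letters of the cAMP response element, 32.7% those of the Sp1 box and 12.4% TATAAA, each at any position. The AP-1 letters TGANTCA were in 6.75% of all windows and in 0 of the 8 windows of the members. The GC content was 46.8% for Epgn, 57.2% for Areg and 59.6% for Btc.

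Transcript levels were first compared between genes, as CPM per kilobase of exon. The length was that of all annotated exons of a gene merged, 11.3 kilobases for Egf and 1.22 for Areg. The order of the genes depends on this length, which may exceed that of the transcripts present. In WT skin Erbb2 was highest on this scale, at 26.8 (range 19.7 to 39.3 over 5 columns). Egf, the founding ligand, was lowest on it, at 0.605 (0.496 to 0.825). In CPM without length, Areg was lowest in WT, at 0.93, and Egf had 6.82. Btc, at 19.1, was by far the most abundant ligand message, between Erbb2 and Erbb3 (16.4) in the order. Egfr itself followed at 4.97, then Tgfa at 2.66, Ereg at 2.61, Hbegf at 1.50, Epgn at 1.12 and Areg at 0.766. Only 1 pair of neighbours in this order, Erbb3 and Egfr, had ranges that did not overlap. The order in KO differed from that in WT in the place of Btc, which stood behind Erbb3 at 11.4 CPM per kilobase, and of Ereg, which stood ahead of Egfr and Tgfa at 7.56. These levels are a description, and the differences between genotypes are given next.

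**Figure D1:**
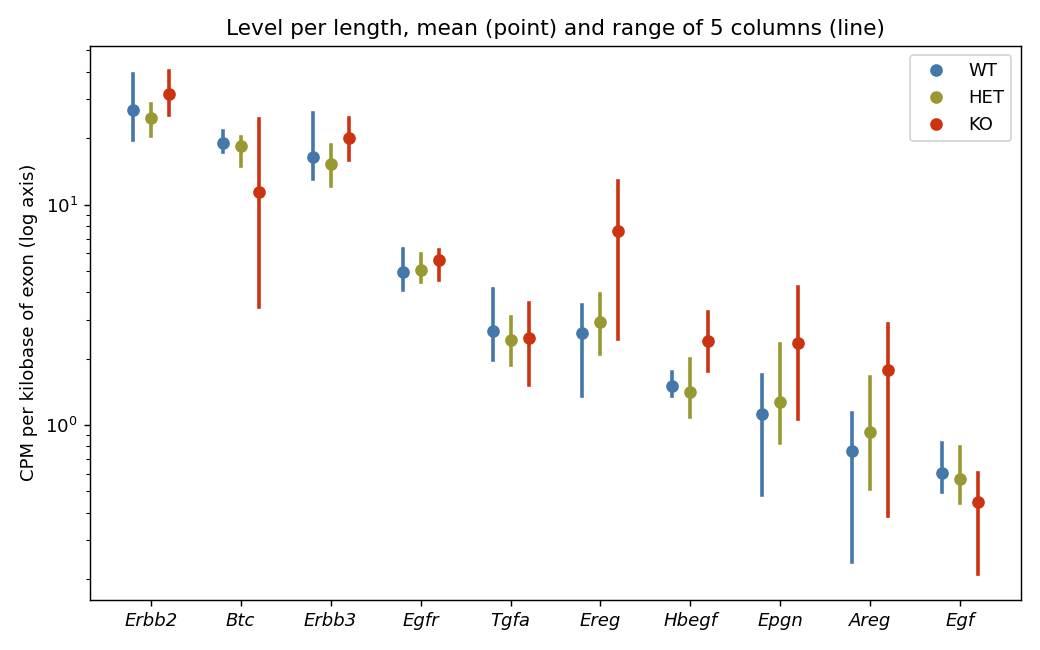
Level per length of the 10 genes, in CPM per kilobase of exon on a log axis, ordered by the WT mean; points are means and lines the range of the 5 columns of WT, HET and KO. Erbb2, Btc and Erbb3 stand above the rest in WT (26.8, 19.1 and 16.4), and the KO lines of Btc and Ereg are the longest on the log axis after that of Areg.

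The comparison of KO with WT asked whether the transcripts of this family change when Dsg1 is lost. In the edgeR test no member was called, which took an adjusted p no larger than 0.1 together with a log2 fold change of at least 1 in size, as 0.322% of all genes had. DESeq2 called 2 members (Ereg and Epgn) and 1.11% of all genes, and limma-voom 0 members and 0.585% of all genes. Of the ligands, 4 of 7 had an unadjusted p under 0.05 in edgeR and a higher mean in KO: Ereg, Epgn, Areg and Hbegf. The 3 receptors had small positive fold changes and the other 3 ligands negative ones, none with an unadjusted p under 0.05 in edgeR. Over all genes, 10.1% had an unadjusted p under 0.05 with a higher level in KO and 9.18% with a lower one, against 4 and 0 of the 10 members. The median log2 fold change was 0.69 over the 7 ligands and 0.24 over the 3 receptors, beside -0.0095 over all genes tested.

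**Figure D2:**
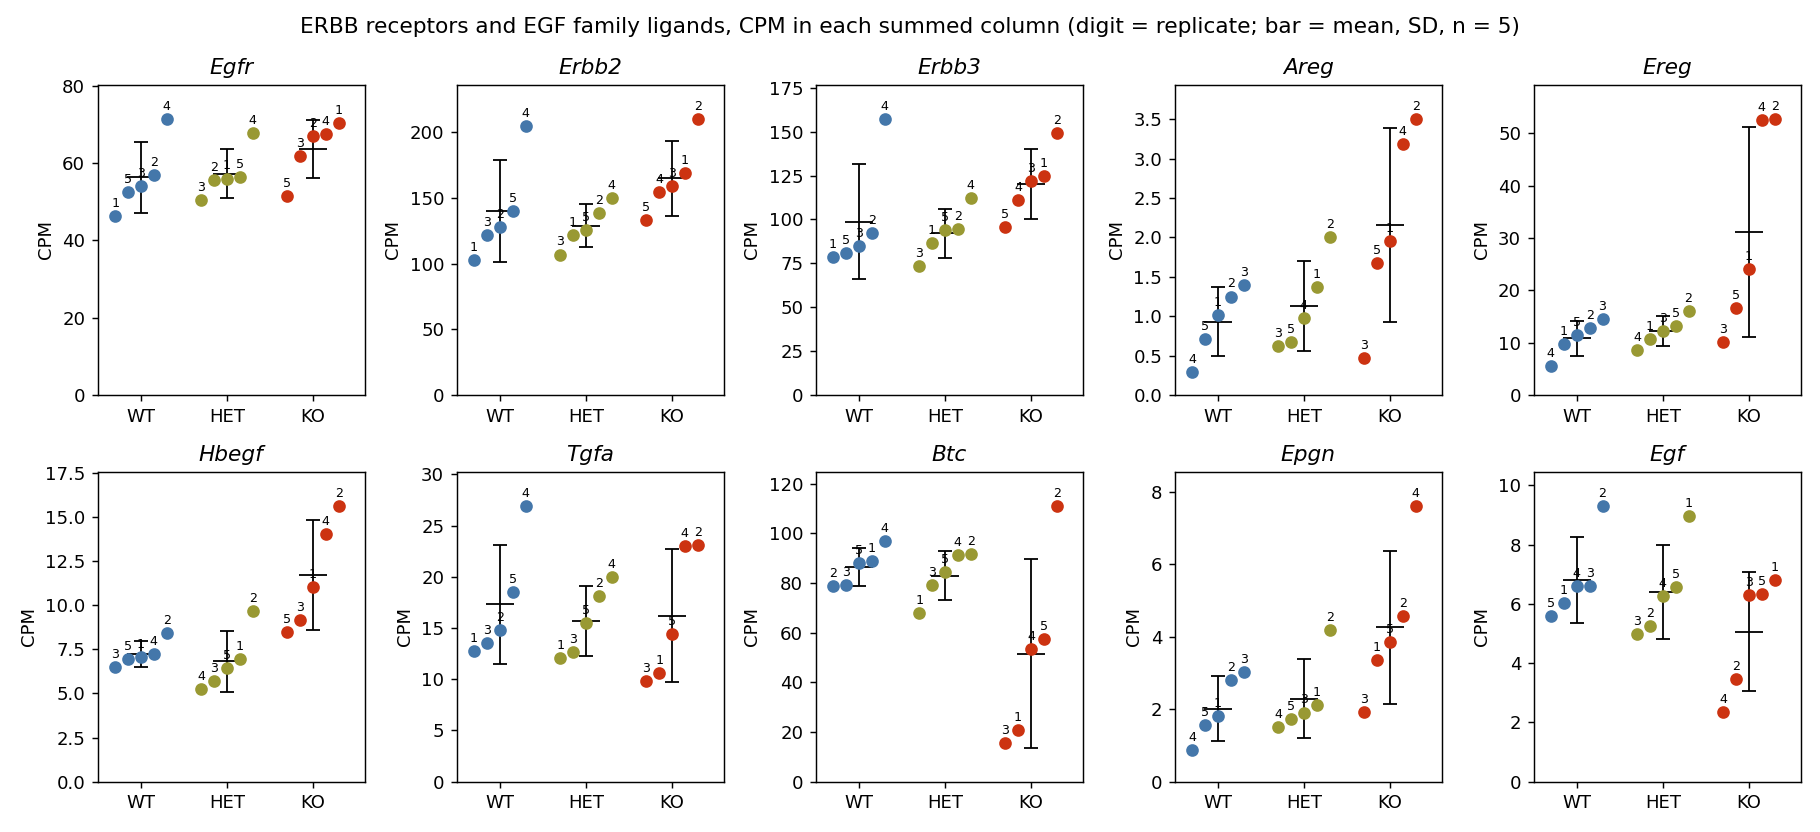
CPM of each of the 10 genes in each of 15 columns, with digits for the replicate and bars for the mean and SD of 5 columns per genotype; each panel has its own axis from 0. For Hbegf all 5 KO points lie above all WT points; for Ereg, Areg and Epgn 4 of 5 do, with KO replicate 3 lower; for Btc the KO points run from 15.5 to 111 CPM.

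Epiregulin (Ereg), a ligand of Egfr and Erbb4 that keratinocytes make in injury and inflammation, differed most. WT replicates 1 to 5 had 9.65, 12.8, 14.5, 5.57 and 11.4 CPM. HET replicates had 10.6, 16.1, 12.2, 8.65 and 13.2 CPM, and KO replicates 24, 52.7, 10.2, 52.6 and 16.7 CPM. KO replicates 2 and 4 stood far above the rest, replicates 1 and 5 also exceeded every WT column, and replicate 3 lay within the WT range. The KO mean was 31.2 ± 20.1 CPM against 10.8 ± 3.42 in WT, a ratio of 2.90 and a log2 fold change of 1.53 (SE 0.406). The adjusted p of the edgeR test was 0.105, just short of the threshold, and the two-sided exact permutation test gave p = 0.0397. The adjusted p was no larger than 0.1 in 6 of 29 alternatives. Without KO replicate 3 the log2 fold change was 1.76 (adjusted p = 0.0346) and without KO replicate 5 it was 1.69 (0.0493). Without WT replicate 4 it was 1.36 (0.0843), and Ereg was called in each of these fits. Without KO replicate 2 it was 1.26 (0.169) and without KO replicate 4 it was 1.26 (0.232), and Ereg was not called. Without WT replicate 2, the number 35 column, it was 1.60 with an adjusted p of 0.219. Within the title series it was 1.42 in series 1 alone (3 columns per genotype, adjusted p = 0.551) and 1.53 in series 2 alone (5 columns, adjusted p = 0.106).

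Epigen (Epgn), a low-affinity ligand of Egfr, was expressed at a few CPM. Its levels were 1.80, 2.81, 3.03, 0.873 and 1.56 CPM in WT replicates 1 to 5 and 2.12, 4.20, 1.91, 1.50 and 1.72 CPM in HET. In KO they were 3.37, 4.57, 1.92, 7.61 and 3.86 CPM, and 4 of 5 KO columns were above all WT columns. The log2 fold change was 1.06 (SE 0.382), with an adjusted p of 0.164 in edgeR and an exact permutation p of 0.0397. Without KO replicate 3 it was 1.24 (adjusted p = 0.0966) and without KO replicate 4 it was 0.75 (0.367), with an unadjusted p no longer under 0.05. Without WT replicate 2 the log2 fold change was 1.21 (0.235). In series 1 alone it was 0.49 (0.815), while series 2 alone gave 1.13 (0.112).

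Amphiregulin (Areg), an Egfr ligand known for its part in epidermal hyperplasia, was the least counted member, with 8 to 95 counts per column. WT replicates had 1.02, 1.25, 1.39, 0.291 and 0.705 CPM, and HET replicates 1.37, 2.01, 0.625, 0.976 and 0.670 CPM. KO replicates had 1.95, 3.50, 0.468, 3.19 and 1.67 CPM. Again 4 of 5 KO columns exceeded all WT columns and KO replicate 3 did not. The mean was 2.32 times that of WT, and the log2 fold change was 1.19 (SE 0.477, edgeR adjusted p = 0.198, exact permutation p = 0.0952). The unadjusted p was 0.05 or above in 7 of 28 alternatives, such as without KO replicate 2 (0.94, adjusted p = 0.335), KO replicate 4 (1.02, 0.375), WT replicate 4 (0.96, 0.227) or WT replicate 5 (1.11, 0.305). Without KO replicate 3 the log2 fold change was 1.45 (adjusted p = 0.0856) and without WT replicate 2 it was 1.32 (0.277). In series 1 alone it was 1.29 (0.670) and in series 2 alone 0.96 (0.182).

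Heparin-binding EGF-like growth factor (Hbegf), which binds Egfr and Erbb4 and promotes keratinocyte migration, was the only member whose summed KO and WT columns did not overlap. Its levels were 7.04, 8.43, 6.51, 7.24 and 6.95 CPM in WT replicates 1 to 5, which spread little as summed columns. HET replicates had 6.96, 9.64, 5.70, 5.27 and 6.46 CPM and KO replicates 11.0, 15.6, 9.15, 14 and 8.47 CPM. The lowest KO column, replicate 5, was only just above the highest WT column, replicate 2, which is the number 35 column. In single libraries of series 2 the genotypes overlapped, with 6.95 to 9.80 CPM in WT and 8.47 to 15.7 CPM in KO. The 2 libraries of WT replicate 4 had 5.87 and 9.80 CPM. Over 8 pairs of libraries, number 35 left out, the ratio of series 1 to series 2 was 0.636 to 1.61 (1 CPM added). The ratio of the KO mean to the WT mean was 1.61, no larger than that. Among all genes tested, 1.61% did not overlap with KO higher, against 1 of 10 members. The log2 fold change was 0.69 (SE 0.183), below the limit of 1, with an edgeR adjusted p of 0.102 and an exact permutation p of 0.00794, the smallest possible. Without WT replicate 2 it was 0.75 (adjusted p = 0.212), and without KO replicate 5 it was 0.78 (0.0439). Without KO replicate 2 it was 0.56 (0.165) and without KO replicate 4 it was 0.61 (0.228). The adjusted p was no larger than 0.1 in 9 of 29 alternatives. Series 1 alone gave 0.85 (0.551) and series 2 alone 0.55 (0.143). Hbegf lies on the same chromosome as the deleted Dsg1 cluster, and the deletion descends from a single founder. Whether this shared chromosome had a part in the Hbegf difference was not tested.

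Betacellulin (Btc), a ligand of Egfr and Erbb4 found in the hair follicle, was even across control skin and uneven in KO. WT replicates had 88.7, 78.8, 79.4, 97.1 and 88.2 CPM and HET replicates 67.9, 91.7, 79.3, 91.3 and 84.6 CPM. KO replicates had 20.8, 111, 15.5, 53.3 and 57.6 CPM, so that 4 lay below all WT columns and replicate 2 above all of them. The coefficient of variation was 8.78% in WT and 73.7% in KO. The KO mean was 59.6% of the WT mean, and the log2 fold change was -0.75 (SE 0.390, edgeR adjusted p = 0.304). Without KO replicate 2 it was -1.23 (adjusted p = 0.115), and without KO replicate 3 it was -0.51 (0.360). The unadjusted p was under 0.05 in 4 of 29 alternatives, and the adjusted p was no larger than 0.1 in 0 of 29. The 7 hair follicle genes summed to 346, 287, 280, 258 and 292 CPM in KO replicates 1 to 5 and to 260 to 301 CPM in WT, and their part in the Btc levels was not tested.

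Tgfa and Egf had lower means in KO, but the differences were within the spread between columns. Transforming growth factor alpha (Tgfa), a ligand that keratinocytes themselves make, had 12.8 to 26.9 CPM in WT (median 14.8), 12.1 to 20 CPM in HET and 9.87 to 23.1 in KO (median 14.4). Its KO levels fell into a higher pair, replicates 2 and 4 at 23.1 and 23 CPM, and a lower set at 9.87 to 14.4 CPM. The log2 fold change was -0.10 (SE 0.265, edgeR adjusted p = 0.862). Egf had 5.59 to 9.30 CPM in WT and 2.36 to 6.82 CPM in KO, where replicates 2 and 4 were the lowest at 3.47 and 2.36 CPM, below all WT columns. Its log2 fold change was -0.43 (SE 0.255, adjusted p = 0.354), and -0.29 (0.597) without WT replicate 2.

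The receptors were measured with higher counts than most ligands, and their fold changes were small. Egfr had 46.4, 57.0, 54.1, 71.3 and 52.6 CPM in WT replicates 1 to 5, 56.0, 55.6, 50.4, 67.7 and 56.5 CPM in HET and 70.3, 67.1, 61.8, 67.4 and 51.5 CPM in KO. The genotypes overlapped throughout, and the KO mean was 1.13 times that of WT (log2 fold change 0.18, SE 0.114, edgeR adjusted p = 0.396). Erbb2 had 103 to 205 CPM in WT, 107 to 150 in HET and 133 to 210 in KO, and its log2 fold change was 0.24 (SE 0.161, adjusted p = 0.404). Erbb3 had 78.7 to 157 CPM in WT, 73.3 to 112 in HET and 95.4 to 149 in KO, and its log2 fold change was 0.29 (SE 0.179, adjusted p = 0.381). In WT the high values of Erbb2 and Erbb3 came from replicate 4, at 205 and 157 CPM against at most 140 and 92.1 CPM in the other WT columns. Without it the log2 fold changes were 0.42 for Erbb2 (adjusted p = 0.0775) and 0.52 for Erbb3 (adjusted p = 0.0523), both still under the fold limit.

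**Figure D3:**
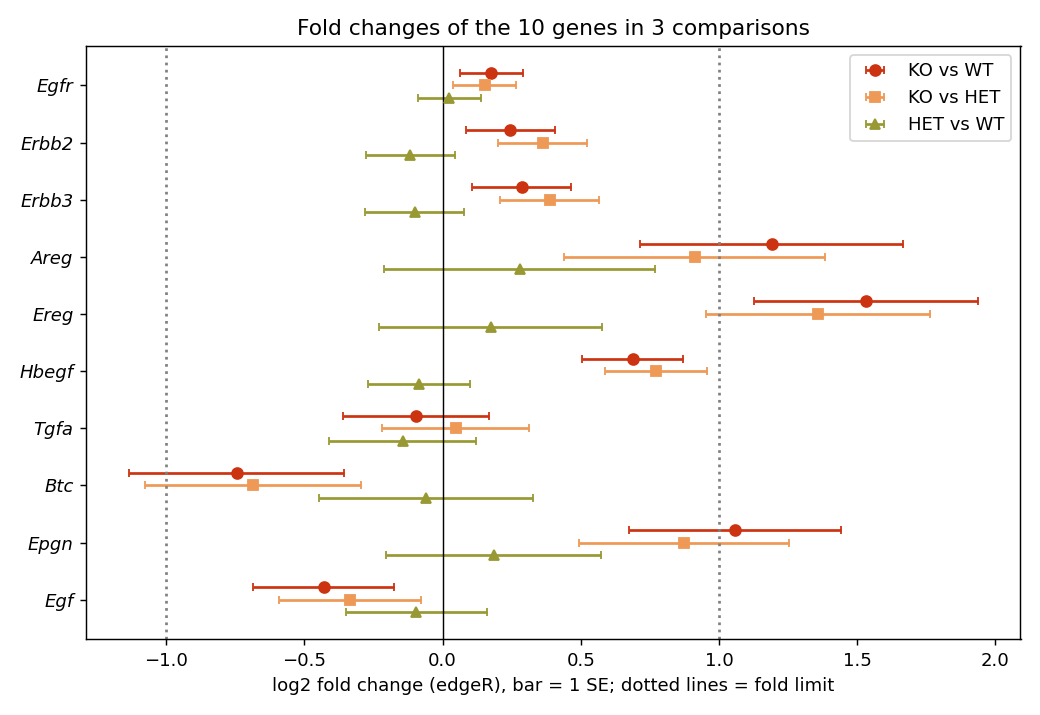
Log2 fold changes of the 10 genes from the edgeR fit in 3 comparisons, with 1 SE as bars and dotted lines at the fold limit of 1 in either direction. KO vs WT exceeds the limit for Ereg (1.53), Areg (1.19) and Epgn (1.06), and HET vs WT stays between -0.14 and 0.28.

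HET skin was then compared with WT to ask whether 1 copy of the cluster is enough to keep the family at its level. No member was called by edgeR, DESeq2 or limma-voom, and 0 of 10 had an unadjusted p under 0.05 in either direction, where all genes gave 0% called, 0.825% higher and 0.755% lower. Log2 fold changes ran from -0.14 (Tgfa, SE 0.266) to 0.28 (Areg, SE 0.491), with unadjusted p of 0.476 to 0.880. No member had HET columns that were all above WT, as 0.140% of genes did. For Egfr the difference was 0.02 with an SE of 0.114, and for Hbegf it was -0.08 with an SE of 0.185. For Areg, Ereg, Epgn and Btc the SE was 0.387 to 0.491, so a change of that order could not be seen.

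KO was also compared with HET, which shares its KO columns with the comparison above. No member was called by edgeR, which called 0.181% of all genes, or by limma-voom, which called 0.240%, and 1 (Ereg) by DESeq2, which called 0.737%. An unadjusted p under 0.05 with higher levels in KO was found for 5 of 10 members, against 8.17% of all genes, and with lower levels for 0, against 7.87%. The 5 were Hbegf (log2 fold change 0.77, edgeR adjusted p = 0.124, exact permutation p = 0.0238), Ereg (1.36, 0.169, 0.0635), Epgn (0.87, 0.279, 0.0952), Erbb2 (0.36, 0.290, 0.0317) and Erbb3 (0.39, 0.303, 0.0317). Erbb2 was above all HET columns in 4 of 5 KO columns and Erbb3 in 3 of 5, and their unadjusted p was 0.05 or above in 7 and 14 of 29 alternatives. Columns without overlap, with KO above HET, were found for 0 of 10 members and for 0.954% of genes. Btc was lower in KO than in HET with a log2 ratio of -0.69 (adjusted p = 0.400).

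**Figure D4:**
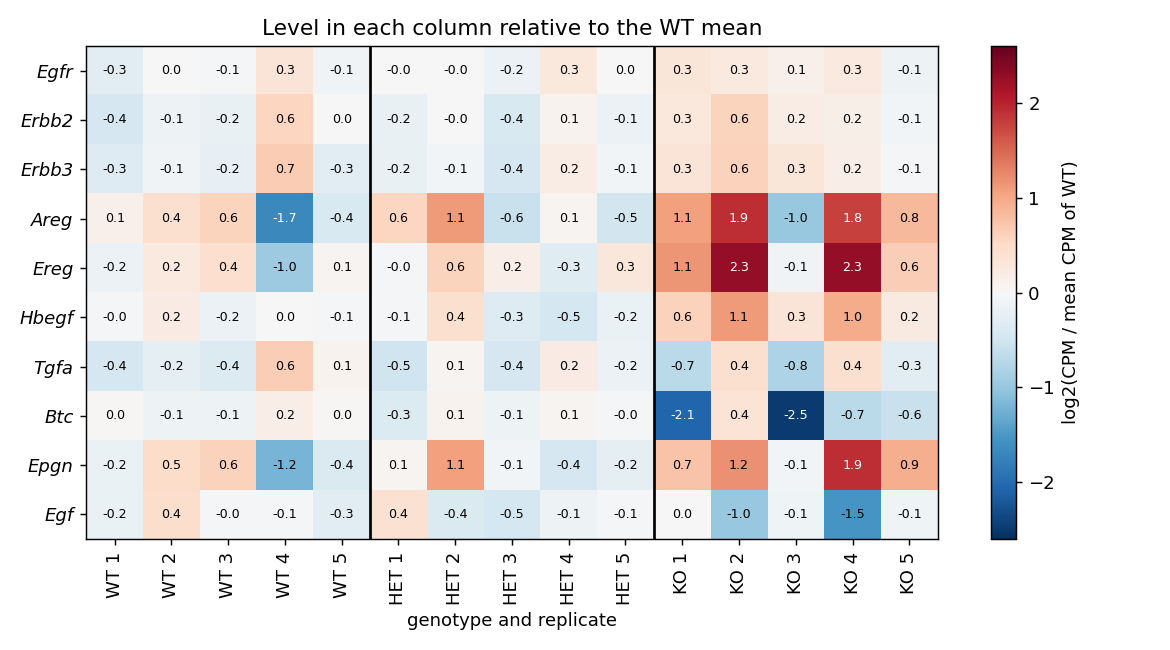
Level of each gene in each column as log2 of its CPM over the mean CPM of WT, red for higher and blue for lower, with columns grouped by genotype and vertical lines between genotypes. The receptors stay within about 0.7 of the WT mean, while Areg, Ereg and Epgn are highest in KO replicates 2 and 4, and Btc is lowest in KO replicates 1 and 3.

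Within a genotype, several members were highest or lowest in the same column. Among KO columns, replicate 2 was the highest for 7 members (Erbb2, Erbb3, Areg, Ereg, Hbegf, Tgfa and Btc), and replicate 3 the lowest for 5 (Areg, Ereg, Tgfa, Btc and Epgn). Among WT columns, replicate 4 was the highest for Egfr, Erbb2, Erbb3, Tgfa and Btc and the lowest for Areg, Ereg and Epgn. HET replicate 2 was the highest HET column for Areg, Ereg, Hbegf, Btc and Epgn. The receptors were thus high in WT replicate 4 where Areg, Ereg and Epgn were low, whereas in KO replicate 2 Erbb2, Erbb3, Areg and Ereg were all high.

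Likeness was measured as the root mean square difference between standardised log2(CPM + 1) profiles over the 15 columns, which is 0 for identical profiles and 2 for mirrored ones, and is given as a description since the columns share genotypes and library composition. The closest members were Erbb2 and Erbb3 (0.307), then Areg and Epgn (0.412), Areg and Ereg (0.450) and Ereg and Epgn (0.454). Btc, on the other strand of the same stretch of chromosome 5, was 1.39 from Areg, 1.48 from Ereg and 1.51 from Epgn, and Egf was the farthest of all, 1.85 from Ereg. Of the neighbours outside the ligands, Mthfd2l was lower in KO than in WT with an edgeR log2 fold change of -0.298 (unadjusted p = 0.0084 in the fit over all genes), and Parm1 had one of 0.298 (0.135).

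The nearest genes of the whole table were also listed. For Areg they were Sprr1a, a cornified envelope precursor (0.357), Klk6, a kallikrein protease (0.375), and Epgn. For Ereg they were RP24-455C11.3 (0.327), Klk6 (0.362) and Ephx3, an epoxide hydrolase (0.406). Epgn was nearest to Il33, an epithelial alarmin (0.439), Sprr1a (0.439) and Ereg. For Hbegf they were Pla2g4e, a phospholipase (0.393), Plet1 (0.446) and Trim41 (0.447). Erbb2 was nearest to Pard3, a polarity protein (0.191), Cfap43 (0.193) and Tead3 (0.270), and Erbb3 to Acvr1b, an activin receptor (0.247), Arhgef4 (0.272) and Mtmr3 (0.286).

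Marker levels were set beside the ligands. Krt16, a keratin of stressed epidermis, had 440, 334, 54.5, 420 and 176 CPM in KO replicates 1 to 5, lowest in replicate 3 as Ereg, Areg and Epgn were, and 15.4 to 37.7 CPM in WT. In HET it was 86.7 CPM in replicate 2, where those ligands were also highest, and at most 29.1 CPM elsewhere. The summed level of 4 stress keratins (Krt6a, Krt6b, Krt16 and Krt17) ranged from 589 to 865 CPM in WT, 575 to 1110 in HET and 674 to 1270 in KO. Their edgeR log2 fold changes KO vs WT were 3.52 for Krt16 (adjusted p = 0.0333), 3.13 for Krt6a (0.131) and 2.71 for Krt6b (0.188). The KO columns of Krt6a were uneven, from 1.11 to 53.3 CPM with a median of 3.02, against 0.825 to 2.22 CPM in WT. Krt17 was not higher, at -0.11 (0.683). The 7 fibroblast genes were lowest in KO replicate 4 (14900 CPM) and highest in WT replicate 4 (36900 CPM), and the 8 muscle genes were lowest in KO replicate 2 (9390 CPM). The 7 suprabasal genes summed to 55700 to 79500 CPM in WT, 56100 to 73900 in HET and 69900 to 104000 in KO, highest in KO replicate 2. The 7 neutrophil genes summed to 6.06, 8.23, 6.48, 6.73 and 5.44 CPM in WT replicates 1 to 5, 4.45 to 13.5 CPM in HET and 12.3, 5.53, 16.2, 14.5 and 6.38 CPM in KO, highest in KO replicate 3. Of the 5 tested, 1 passed the adjusted p limit KO vs WT, Cxcr2, a chemokine receptor (log2 fold change 2.31, edgeR adjusted p = 0.0891), and their median was 1.05. The 7 macrophage genes summed to 208 to 398 CPM, and no marker on these lists was at 0 in all columns of a genotype. With the muscle gene level in the model, the log2 fold change KO vs WT was 1.09 for Ereg (adjusted p = 0.213), 0.58 for Hbegf (0.146), 0.97 for Areg (0.377), 0.96 for Epgn (0.283), -0.36 for Tgfa (0.305) and -1.20 for Btc (0.111). Areg then no longer had an unadjusted p under 0.05. With the Y-linked gene level in the model instead, the log2 fold change was 1.46 for Ereg (adjusted p = 0.162) and 0.67 for Hbegf (0.156). For Areg it was 1.18 (0.265) and for Epgn 1.08 (0.213). The part of the other markers in these differences was not tested.

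The rest of the pathway was described from lists of genes by role, KO vs WT. Of Erbb4 and the neuregulins, 4 of 5 were tested (Nrg3 was not) and 0 had an unadjusted p under 0.05. Over all genes, 0.614% had an adjusted p no larger than 0.1 and a higher level in KO, and the shares with an unadjusted p under 0.05, 10.1% higher and 9.18% lower, are the background for each list here. Of 11 genes for ligand release, 1 passed the adjusted p limit of 0.1 and rose, and 4 had an unadjusted p under 0.05, all higher. The gene that rose was Rhbdf2 (iRhom2), which brings the protease ADAM17 to the cell surface and matures it. Rhbdf2 went from 26.2 ± 3.48 CPM in WT to 37.8 ± 7.15 CPM in KO (log2 fold change 0.52, edgeR adjusted p = 0.0978), with KO replicates at 42, 43.4, 31.9, 43.2 and 28.3 CPM. It passed that limit in 12 of 29 alternatives, with log2 fold changes of 0.46 to 0.61 and an adjusted p of up to 0.551 in series 1 alone, and was lost with total count scaling, number 35 from series 1, the Y-linked or the muscle covariate and only WT and KO in the fit, and without each of 3 KO replicates (1, 2 and 4), 4 HET replicates and 4 WT replicates. The proteases Adam9 (0.30, 0.149), Adam17 (0.26, 0.157) and Adam12 (0.50, 0.246) had higher means without passing the adjusted test. The list median was 0.031, close to that of all genes.

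Genes that restrain or take up the receptors were next. Of 13, none passed the adjusted test and 5 had an unadjusted p under 0.05, all higher in KO, with a median log2 fold change of 0.124. Sh3kbp1 (CIN85), an adaptor in receptor endocytosis, had 70.7 CPM in WT and 104 CPM in KO (0.56, edgeR adjusted p = 0.102). The ubiquitin ligase Cbl had 48 and 65.3 CPM (0.44, 0.119), and the EGFR inhibitor Errfi1 57.4 and 70.4 CPM (0.29, 0.232). Erbb2ip, which encodes Erbin, had 171 ± 21 CPM in WT and 204 ± 23.7 CPM in KO (0.26, 0.202), with 2 of 5 KO columns above all WT columns.

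Of 18 RAS to ERK transducers, none passed the adjusted test, 4 had an unadjusted p under 0.05, all higher (10.1% over all genes), and the median log2 fold change was 0.126. They included Ptpn11 (SHP2, a phosphatase needed for RAS activation; 0.27, edgeR adjusted p = 0.113) and Braf (0.27, 0.198). For Ptpn11 all 5 KO columns lay above all WT columns, as for 1.61% of all genes. Of 11 genes of the AKT and STAT branches, none passed the adjusted test and 2 had an unadjusted p under 0.05, both higher and among them Stat3 (0.23, 0.254), with a median of 0.134.

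Genes that ERK activity is known to induce made up the last list. Of 16, 1 passed the adjusted p limit and rose. An unadjusted p under 0.05 was found for 6 that were higher in KO and for 1 that was lower. Whatever the p, 11 of the 16 had positive log2 fold changes and 5 negative ones, and the median was 0.218. The gene that rose was Fosl1, an AP-1 subunit, from 1.10 ± 0.0443 CPM in WT to 2.64 ± 1.22 in KO (log2 fold change 1.24, SE 0.267, edgeR adjusted p = 0.0740). Fosl1 had few counts, 22 to 37 per WT column and 33 to 84 per KO column. Its KO replicates had 1.47, 3.06, 1.40, 4.32 and 2.95 CPM, all above WT, as for 1.61% of all genes. It was called in KO vs WT, as 0.322% of all genes were. It passed the adjusted p limit in 19 of 28 alternatives and missed it in series 1 alone (0.96, adjusted p = 0.551), with a covariate for Y-linked genes (1.20, 0.139), with only WT and KO in the fit (1.25, 0.196) and without KO replicate 4 (1.00, 0.176), HET replicate 3 (1.25, 0.101) or WT replicate 1, 2, 3 or 5 (1.23 to 1.27, 0.132 to 0.178). Dusp4, a phosphatase that acts on ERK, had 11.2 CPM in WT and 19.1 CPM in KO (0.76, adjusted p = 0.105), and Phlda1 17.4 and 22.3 CPM (0.36, 0.104). Egr1, an immediate early gene, had 25.9 CPM in WT and 64.5 CPM in KO (1.31, 0.111). Spry2, a feedback inhibitor, was the lower one of those with an unadjusted p under 0.05 (-0.34, adjusted p = 0.178). It is named after its value was seen. In HET vs WT, over all of these lists, 1 gene had an unadjusted p under 0.05, Spry1, which was lower (-0.27, edgeR adjusted p = 1.00). In KO vs HET, 9 of the 16 ERK-induced genes had an unadjusted p under 0.05, all higher in KO, as 8.17% of all genes had, and 1 of them passed the adjusted p limit, against 0.146%.

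**Figure D5:**
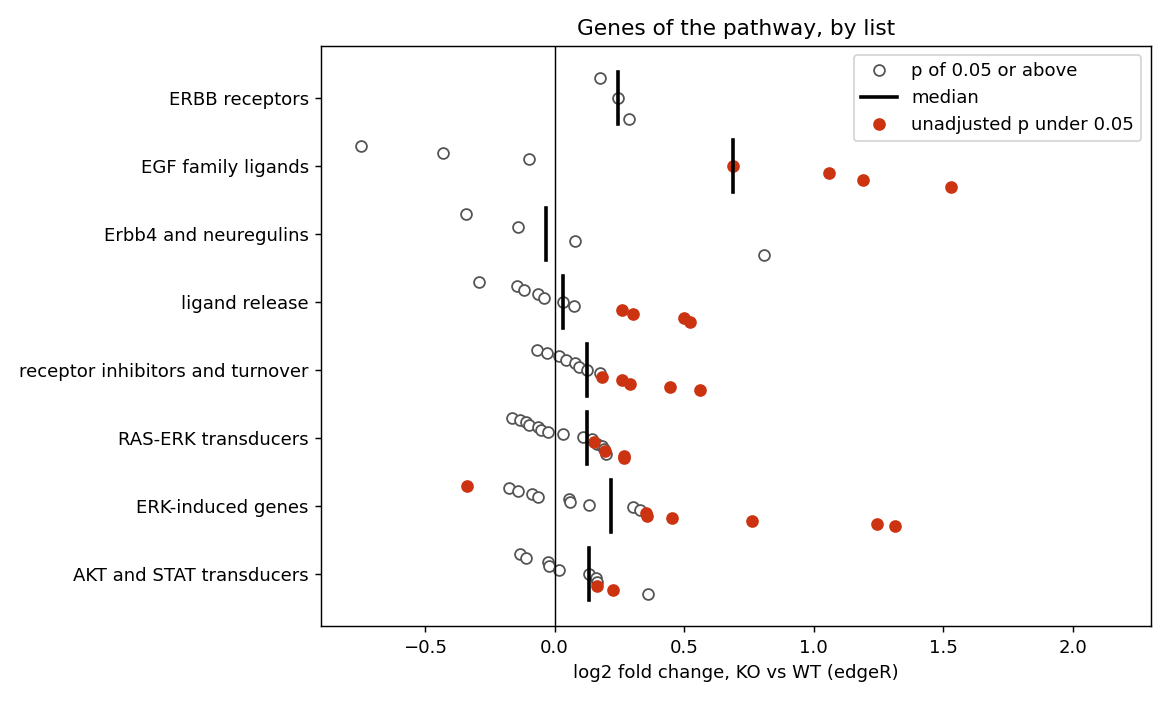
Log2 fold changes KO vs WT of the tested genes of each pathway list, one point per gene, filled where the unadjusted p was under 0.05, with the list median as a black line and 0 as a thin line. The ligands spread widest, from -0.75 (Btc) to 1.53 (Ereg), and the medians of the other lists lie between -0.032 and 0.244.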

How the data were processed

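RNA-Seq libraries from poly(A) RNA of flash-frozen skin were read as the deposited table of raw counts, whole numbers per gene symbol for 24 libraries with 8.98 M to 20.96 M counts (M, mega). The processing notes of the submitters name STAR, HTSeq and hg19, a human build, although the symbols are mouse; versions, annotation and the use of strand are not given in the sources used here, so genes that overlap an antisense gene are uncertain. Libraries were mapped to genotypes by the labels and those with the same title number and genotype were summed to 15 columns. The labels do not say what a title number is, so p-values measure the spread between columns, which may be technical. Replicates are numbered by title number and are not paired across genotypes.

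Counts were filtered with filterByExpr and scaled by TMM. The test was glmQLFTest of edgeR 4.0.16 (R 4.3.3; robust glmQLFit over all 3 genotypes together), with Benjamini-Hochberg adjustment over 17094 genes, which held 99.9% of counts. CPM use the TMM-adjusted library size. An SE is the log2 fold change divided by the square root of F. Members with an unadjusted p under 0.05 also had a two-sided exact permutation test on log2(CPM + 1) (scipy 1.17.1). Exon lengths (all annotated exons of a gene merged) and gene order are from GENCODE vM21 and windows from RefSeq. The members, lists and tests were chosen with earlier results of these data known. The text names all members, up to 4 genes per pathway list with the smallest unadjusted p under 0.05, and the 3 genes of most similar profile, with a mean of 50 counts or more, for members with an unadjusted p under 0.05. Of the genes this rule picks, 3 are not reported here. The scripts were tested on simulated data. Alternatives were RLE factors, total counts, DESeq2 1.42.0, limma-voom (limma 3.58.1), other filters and thresholds, each title series, 24 separate libraries, number 35 from either series, covariates for Y-linked and muscle genes, and each replicate left out.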

Additional observations from a re-analysis of the deposited data

Results flagged for a closer look

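Within each genotype, the gap of the highest or lowest column to its nearest neighbour was divided by the range of the 5 columns, for 30 sets of 10 genes in 3 genotypes. About 1 in 20 such sets passes the limit by chance, or 1.5 of 30, and 3 did. Erbb3 in WT replicate 4 was at 157 CPM against 78.7 to 92.1 CPM in the other WT columns (gap 0.829 of the range). Epgn in HET replicate 2 was at 4.20 CPM against 1.50 to 2.12 CPM (0.771). Egf in WT replicate 2, the column of number 35, was at 9.30 CPM against 5.59 to 6.61 CPM (0.726), and its separate libraries had 9.32 and 9.29 CPM.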

How the results depend on the processing

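Against 0 in edgeR on summed columns, where 0.322% of all genes were called, the number of members called KO vs WT was 1 with RLE factors (Ereg; 0.415% of all genes), 2 with DESeq2 (Ereg and Epgn; 1.11%) and 2 with 24 separate libraries (1.38%), which treat libraries of one number as independent. Leaving out 1 replicate gave 0 to 3: 3 without KO replicate 3 (Areg, Ereg and Epgn; 0.920%) and 1, Ereg, without KO replicate 5 (1.39%) or WT replicate 4 (0.839%). Calls over all genes thus rose under each of these settings too. KO vs HET gave 1 with DESeq2 (Ereg; 0.737% of all genes), 1 with 24 libraries (1.12%) and 0 to 1 with a replicate left out, 1 without KO replicate 3 (0.573%) or KO replicate 5 (0.654%), against 0.181% in edgeR; limma-voom called 0 in each comparison. Of 289 log2 fold changes recomputed per comparison, 3 turned direction KO vs WT, 14 HET vs WT and 8 KO vs HET, and the cause was not tested. HET vs WT turned to -0.17 for Egfr and 0.30 for Hbegf in series 1 alone, and to -0.055 for Egfr with 24 libraries. Tgfa KO vs HET turned to -0.010 with total counts, -0.016 with limma-voom, -0.032 in series 2 alone and -0.22 with the muscle covariate. With a replicate left out, HET vs WT ran from -0.045 to 0.12 for Egfr, -0.21 to 0.062 for Erbb2, -0.18 to 0.13 for Erbb3, -0.039 to 0.47 for Areg, -0.25 to 0.073 for Tgfa, -0.098 to 0.0048 for Btc, -0.16 to 0.38 for Epgn and -0.25 to 0.046 for Egf, and Tgfa ran from -0.26 to 0.12 KO vs WT and from -0.12 to 0.18 KO vs HET. Ereg, Hbegf, Areg and Epgn stayed higher and Btc and Egf lower in KO than in WT under each alternative run, except that Areg was not tested at a mean of 50 or more counts. Areg had an unadjusted p under 0.05 KO vs WT in 21 of 28 alternatives and Epgn in 27 of 29. No paired analysis was possible because genotypes share no title number.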
